A study of Mus musculus with 6 samples.

Results

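The colony-stimulating factors are secreted growth factors for blood and immune cells, and with their receptors they form a small family of genes that was followed here in the mouse mammary carcinoma line E0771. The members were the 8 genes whose symbols matched a fixed list of 4 ligands (Csf1, Il34, Csf2 and Csf3) and 4 receptor genes (Csf1r, Csf2ra, Csf2rb and Csf3r), out of 55571 gene entries in the count table. RNA was sequenced from 3 libraries of cells expressing wild-type Malt1 (Malt1-WT) and 3 libraries of cells carrying the vector control, in both cases at basal condition with no stimulus. The sources used here do not give how Malt1 was introduced, which promoter drove it, or whether each line was a clone or a pool. The comparison asks how the expression of these genes differs between cells with added Malt1, a paracaspase that acts upstream of NF-kB, and vector cells.

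As background, Csf1 (macrophage colony-stimulating factor, M-CSF) and Il34 encode the ligands of the receptor tyrosine kinase Csf1r, on which most macrophages depend. Csf2 encodes granulocyte-macrophage colony-stimulating factor (GM-CSF), which binds the alpha chain Csf2ra and signals through the beta chain Csf2rb to the kinase Jak2 and the transcription factors Stat5a and Stat5b. Csf3 encodes granulocyte colony-stimulating factor (G-CSF), which binds Csf3r and drives the production of neutrophils. Tumour cells that secrete these factors can act on myeloid cells in the host, which carry the receptors.

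The messages of several of these factors carry AUUUA pentamers in their 3′ untranslated regions (UTRs), the element through which tristetraprolin and related proteins shorten the life of an mRNA. The densest 30-base stretch of each ligand's 3′ UTR is shown because the ligands differ in this feature, which the choice of members did not use. The sequences are from the GENCODE M21 transcripts on GRCm38, are written 5′ to 3′ on the strand of the gene, and have each ATTTA pentamer in capitals.
Csf2 (chr11:54247329-54247358, minus strand): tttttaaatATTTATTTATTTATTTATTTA
Csf3 (chr11:98702984-98703013, plus strand): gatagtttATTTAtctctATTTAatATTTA
Csf1 (chr3:107741109-107741138, minus strand): tttatataaggtcATTTAaatatctATTTA
Il34 (chr8:110741845-110741874, minus strand): tggttcctttttctattaaatggccATTTA
The Csf2 stretch holds 5 overlapping pentamers, the Csf3 stretch 3, the Csf1 stretch 2 and the Il34 stretch 1. Over the whole 3′ UTR, Csf2 has 9 pentamers in 317 bases, Csf3 has 6 in 669 bases, Csf1 has 4 in 2111 bases and Il34 has 1 in 439 bases. Among 3′ UTRs of a length within 20% of the gene's own, as many pentamers were found in 0.06% for Csf2, 1.70% for Csf3, 49.16% for Csf1 and 47.34% for Il34. Each such set includes the gene's own 3′ UTR, and the 0.06% for Csf2, out of 1799, is its own 3′ UTR alone. The longer element TTATTTATT occurs 4 times in the Csf2 3′ UTR, on the sense strand that was searched, and in 2.39% of 3′ UTRs of like length. These matches describe the sequence and do not show which proteins bind it in these cells.

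A promoter is shown for Csf1, the most abundant ligand in the vector control, because it holds a match to the NF-kB motif. The RefSeq window on GRCm38.p6 (chr3:107760420-107760719, minus strand) runs from 250 bases before to 50 bases after the start of the gene, and the match, which reads GGGACTTTCC on the opposite strand, is in capitals.
Csf1 promoter: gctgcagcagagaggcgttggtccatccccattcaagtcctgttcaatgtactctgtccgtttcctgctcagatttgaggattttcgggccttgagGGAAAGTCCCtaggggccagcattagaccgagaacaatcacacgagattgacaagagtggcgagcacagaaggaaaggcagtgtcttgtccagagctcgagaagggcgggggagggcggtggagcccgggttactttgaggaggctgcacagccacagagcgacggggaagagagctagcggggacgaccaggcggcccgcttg
The match begins 154 bases before the start. On both strands, the NF-kB motif was found in 8.46% of 32851 such promoter windows and the AP-1 motif TGANTCA in 7.81%. Windows for 4 members were searched, those of Csf1, Csf2, Csf2ra and Csf3r, and Csf3r also held 1 NF-kB match while the other two held none. The AP-1 letters were in none of these 4 windows. The RefSeq start of Csf2 lies 232 bases upstream of the GENCODE M21 start, so its window does not reach the bases just before the GENCODE start.

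Total counts per library were 17601656 to 20543778 in Malt1-WT and 17615241 to 19874209 in the vector control. A count of 0 allows up to 3 counts, which equals 0.147 to 0.175 CPM (the count scaled to library size with TMM factors), and this limit covers counting error only. Malt1 itself had 5526, 6176 and 5087 counts in the Malt1-WT libraries and 517, 633 and 611 in the vector control libraries. The labels call the cells cancer cells. Among 10 epithelial markers, Krt8 (59.6 ± 1.83 CPM in Malt1-WT and 68.5 ± 2.30 CPM in the vector control, SD, n = 3 each) and Epcam (6.22 ± 1.00 and 6.30 ± 0.318 CPM) were expressed, and the other 8, Cdh1 among them, did not pass the filter on low counts. The labels do not say whether the libraries of each group stem from separate cultures, so every p-value rests on a spread between libraries that may be purely technical.

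Of the 8 members, 3 rose in Malt1-WT, and all 3 are ligands: Csf2 65.6-fold, Csf3 48.7-fold and Csf1 3.80-fold. The call rule was an adjusted p under 0.05 in edgeR's quasi-likelihood test, with Benjamini-Hochberg adjustment over all 13594 tested genes. Neither the ligand Il34 nor the receptor gene Csf1r passed it, and Csf2ra, Csf2rb and Csf3r had too few counts to be tested. Across all tested genes 61.2% were called, 31% as higher and 30.2% as lower. Among the 5 tested members 3 were called, which is near that share, and all 3 were higher. The median log2 fold change was 1.93 over the 5 members that passed the filter on low counts and -0.00286 over all tested genes, and Csf1r passed that filter only through its level in Malt1-WT. No member was called lower by edgeR or DESeq2. At an unadjusted edgeR p under 0.05, 0 members were lower and 4 were higher, Csf1r among them.

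**Figure D1:**
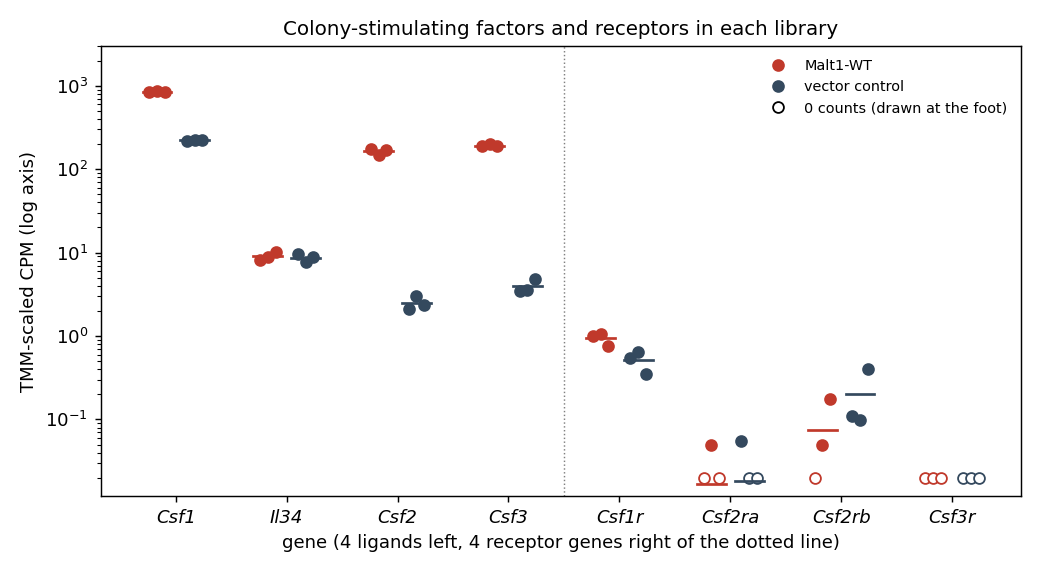
Level of each of the 8 genes in every library, as TMM-scaled CPM on a log axis, with Malt1-WT (red) left of the vector control (dark) and a line at each group's mean; open points at the foot are libraries with 0 counts. The Malt1-WT points of Csf1, Csf2 and Csf3 lie well above all vector points, those of Il34 overlap them, and Csf2ra, Csf2rb and Csf3r lie at or near 0 in both groups.

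Csf2 (ENSMUSG00000018916.5, chromosome 11, 54247271 to 54249667, minus strand, GRCm38) showed the largest change of the family. Its level was 176, 149 and 170 CPM in the Malt1-WT libraries, against 2.09, 3.04 and 2.33 CPM in the vector control libraries. All Malt1-WT libraries lay far above all vector libraries, with the lowest at 149 CPM. Its log2 fold change of 6.04 (SE 0.085, edgeR adjusted p = 4.8e-40) ranked 15th of 13594 tested genes. The vector level rests on 38, 62 and 47 counts, while Malt1-WT had 3149, 2991 and 2909. The annotated antisense gene Gm12223 overlaps Csf2, and it had 4, 7 and 14 counts in Malt1-WT and 0 in each vector library. The sources used here do not give the strand setting of the counting, so reads of Csf2 and Gm12223 cannot be told apart with certainty.

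Csf3 (ENSMUSG00000038067.2, chromosome 11, 98701263 to 98703629, plus strand) lies on the same chromosome as Csf2. It was counted at 189, 198 and 189 CPM in Malt1-WT, against 3.47, 3.53 and 4.77 CPM in the vector control. The groups were again far apart, and vector control replicate 3 was the highest of its group. A log2 fold change of 5.60 (SE 0.067, edgeR adjusted p = 1.1e-50) placed it 23rd among all tested genes. No other annotated gene overlaps Csf3.

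Csf1 (ENSMUSG00000014599.10, chromosome 3, 107741048 to 107760469, minus strand) was already abundant in vector cells. It was counted at 843, 864 and 833 CPM in Malt1-WT and at 217, 225 and 226 CPM in the vector control. The libraries of each group lay close together, and the groups did not overlap. Its log2 fold change was 1.93 (SE 0.029, edgeR adjusted p = 2.7e-46). In Malt1-WT its CPM ranked 104th of all tested genes, a rank that is not corrected for gene length.

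Il34 (ENSMUSG00000031750.15, chromosome 8, 110741829 to 110805924, minus strand), the other ligand of Csf1r, did not pass the test. Its level was 8.10, 8.87 and 10.2 CPM in Malt1-WT, against 9.59, 7.80 and 8.74 CPM in the vector control. The groups overlapped, with the lowest library in the vector control and the highest in Malt1-WT. For Il34 the log2 fold change was 0.06 (SE 0.122, edgeR adjusted p = 0.702), and its 95% interval by normal approximation ran from -0.18 to 0.30. With scaling by library size only, the log2 fold change was -0.018, so its sign depends on the setting. The intervals of Il34 and Csf1 (1.87 to 1.98) did not overlap, although both proteins bind the same receptor.

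The receptor genes were at the edge of detection. Csf1r (ENSMUSG00000024621.16, chromosome 18, 61100598 to 61132149, plus strand) had 18, 21 and 13 counts in Malt1-WT and 10, 13 and 7 counts in the vector control. Scaled, these were 1.01, 1.05 and 0.759 CPM in Malt1-WT and 0.551, 0.638 and 0.348 CPM in the vector control. The groups did not overlap, as in 64.4% of all tested genes, but the test was not passed (log2 fold change 0.87, SE 0.409, edgeR adjusted p = 0.0610, 95% interval 0.07 to 1.67). The gene Hmgxb3 on the opposite strand overlaps the end of Csf1r and had 4090 counts in Malt1-WT and 3110 in the vector control, so part of the Csf1r counts may not be its own; this was not tested.

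Csf2rb (ENSMUSG00000071713.6, chromosome 15, 78325752 to 78353847, plus strand), the shared signalling chain for GM-CSF, interleukin-3 and interleukin-5, had 0, 1 and 3 counts in Malt1-WT and 2, 2 and 8 in the vector control. Csf2ra (ENSMUSG00000059326.7, chromosome 19, 61223957 to 61228429, minus strand), the GM-CSF binding chain, had 1 count in each group. Csf3r (ENSMUSG00000028859.14, chromosome 4, 126024550 to 126044440, plus strand) had 0 counts in every library, so its level was under 0.175 CPM at this depth. With no filter on low counts, Csf2rb had a log2 fold change of -1.41 (SE 1.10, edgeR adjusted p = 0.405) and Csf2ra one of 0.03 (SE 1.62, adjusted p = 0.989). No difference was thus detected in Csf2rb or Csf2ra, whose few counts leave wide errors, and Csf3r had no counts to compare. Csf2rb2, a mouse-specific near copy of Csf2rb that can share its reads, had 4 counts in Malt1-WT and 2 in the vector control.

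The imbalance between ligand and receptor counts was large in both groups. The 4 ligands summed to 66808 counts over the 3 Malt1-WT libraries and to 13964 over the 3 vector libraries. The 4 receptor genes summed to 57 counts in Malt1-WT and 43 in the vector control. In bulk RNA, a small share of cells with a receptor and a low level in every cell cannot be told apart.

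To compare levels between genes, counts were divided by the length of all annotated exons and scaled to the same total in each library (TPM). The summed TPM of the 4 ligands was 1732, 1677 and 1717 in Malt1-WT, against 185, 185 and 192 in the vector control. In Malt1-WT, Csf2 was at 695 ± 55.0 TPM, Csf1 at 540 ± 12.5, Csf3 at 458 ± 14.8 and Il34 at 15.6 ± 1.89 (SD, n = 3). In the vector control, Csf1 was highest at 151 ± 2.64 TPM, followed by Il34 at 15.9 ± 1.88, Csf2 at 11.1 ± 1.996 and Csf3 at 9.92 ± 1.92 (SD, n = 3). The libraries of neighbours in this order did not overlap, except those of Csf2 and Csf3 in the vector control, which did not differ beyond their spread.

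The make-up of the ligand pool therefore differed between the groups. Csf1 held 31.6 ± 1.25% of the summed ligand TPM in Malt1-WT and 80.3 ± 0.379% in the vector control (SD, n = 3 each). Csf2 held 40.6 ± 2.57% in Malt1-WT and 5.92 ± 1.11% in the vector control, and Csf3 26.8 ± 1.31% and 5.28 ± 0.895%. Il34, whose own TPM hardly differed, held 0.913 ± 0.113% in Malt1-WT and 8.48 ± 1.03% in the vector control. The order of Csf2 and Csf1 in Malt1-WT depends on the length taken for Csf1, since its transcripts differ in length. The ratio of Csf2 to Csf1 per kb in Malt1-WT was 1.29 ± 0.129 with all exons (5281 bases), 1.02 ± 0.102 with a transcript of 4176 bases and 0.511 ± 0.0513 with one of 2097 bases. In the vector control it was 0.0737 ± 0.0136, 0.0583 ± 0.0108 and 0.0293 ± 0.00540 with the same lengths.

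**Figure D2:**
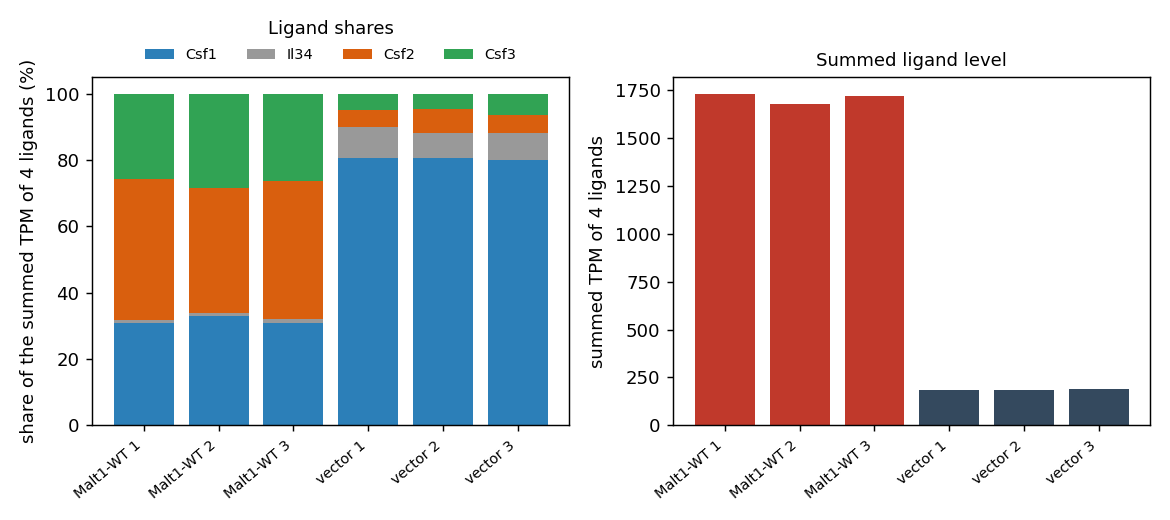
Left, share of the summed TPM of the 4 ligands held by each ligand in every library (%); right, the summed TPM itself, with Malt1-WT in red and the vector control dark. Csf1 makes up about 80.3% of the pool in vector libraries and 31.6% in Malt1-WT libraries, where Csf2 and Csf3 fill most of the rest of a larger sum.

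Ratios between 2 genes within a library do not depend on how libraries are scaled. The count ratio of Csf2 to Csf1 was 0.209, 0.173 and 0.204 in Malt1-WT, against 0.00963, 0.0135 and 0.0104 in the vector control. This is a 17.6-fold higher ratio, with no overlap (exact two-sided permutation test, p = 0.1, the smallest that 3 against 3 can give). The count ratio of Csf3 to Csf2 was 1.07, 1.33 and 1.11 in Malt1-WT, against 1.66, 1.16 and 2.04 in the vector control. These ranges overlapped, and the difference in mean log2 ratio was -0.44 (exact two-sided permutation test, p = 0.2).

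The 3 genes with the most similar pattern to each risen ligand were taken by Euclidean distance between log2 CPM profiles over the 6 libraries, each centred on its own mean, among 10152 protein-coding genes. With 2 groups, this measure finds mostly genes of similar fold change. For Csf1 they were Tnfaip2 (677 ± 9.60 CPM in Malt1-WT and 177 ± 3.31 CPM in the vector control, distance 0.0447), Jak2 (distance 0.0716) and Ampd3 (distance 0.0901). For Csf2 they were Fgf23 (distance 0.574), Gbp4 (0.782) and Ccrl2 (0.840). For Csf3 they were the cytokine gene Il1b (distance 0.440), Ccrl2 (0.539) and Gbp4 (0.609). Fgf23 and Il1b were at only 0.133 ± 0.0718 and 0.0678 ± 0.0274 CPM in the vector control, against 12.8 ± 1.11 and 6.62 ± 0.557 CPM in Malt1-WT, so their place in this order rests on few counts.

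Genes next to the members on the chromosome changed in both directions. Of 38 annotated protein-coding genes within 100 kb of a member, 27 were tested: 7 rose, 8 fell and 12 were not called (55.6% called). That share lies near the 61.2% of all tested genes. Beside Csf2, Il3, which encodes interleukin-3, had 1 count in Malt1-WT and 0 in the vector control at a distance of 15.6 kb, while the fatty acid ligase gene Acsl6 rose by 0.50 on the log2 scale (47.6 ± 1.65 CPM in Malt1-WT and 33.6 ± 1.18 CPM in the vector control).

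Beside Csf3, at distances of 0.962 and 5.284 kb, the Mediator subunit gene Med24 fell by 0.27 and the proteasome subunit gene Psmd3 rose by 0.32 on the log2 scale. The circadian repressor gene Nr1d1 rose by 0.26, and the thyroid hormone receptor gene Thra (-0.06), Msl1 (-0.04) and Gm12355 (-0.55) did not pass the test. Ahcyl1, the single neighbour of Csf1, had a log2 fold change of 0.02 (edgeR adjusted p = 0.682). Near Il34, the splicing factor gene Sf3b3 (-0.21) and Vac14 (-0.17) fell, while Mtss1l (0.02), Cog4 (-0.01) and Fuk (-0.16) did not pass.

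The neighbours of the receptor genes moved in both directions. Near Csf1r, the receptor tyrosine kinase gene Pdgfrb (0.57) and Hmgxb3 (0.49) rose, and Slc26a2 (-0.26) fell. The transporter gene Slc6a7 also fell, with 1 count in Malt1-WT and 62 in the vector control, too few for a firm fold. It passed the filter on low counts only through its level in the vector control. Near Csf2rb, Ncf4 (1.28), which encodes a subunit of the phagocyte NADPH oxidase, rose and Mpst (-0.53) fell, while Tst (-0.12), Kctd17 (-0.09) and Tmprss6 (0.21) did not pass. Near Csf3r, Stk40 (0.71) rose, Oscp1 (-0.74) and Mrps15 (-0.33) fell, and Lsm10 (-0.04) did not pass. Zfp950, near Csf2ra, was at -0.12 and did not pass.

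**Figure D3:**
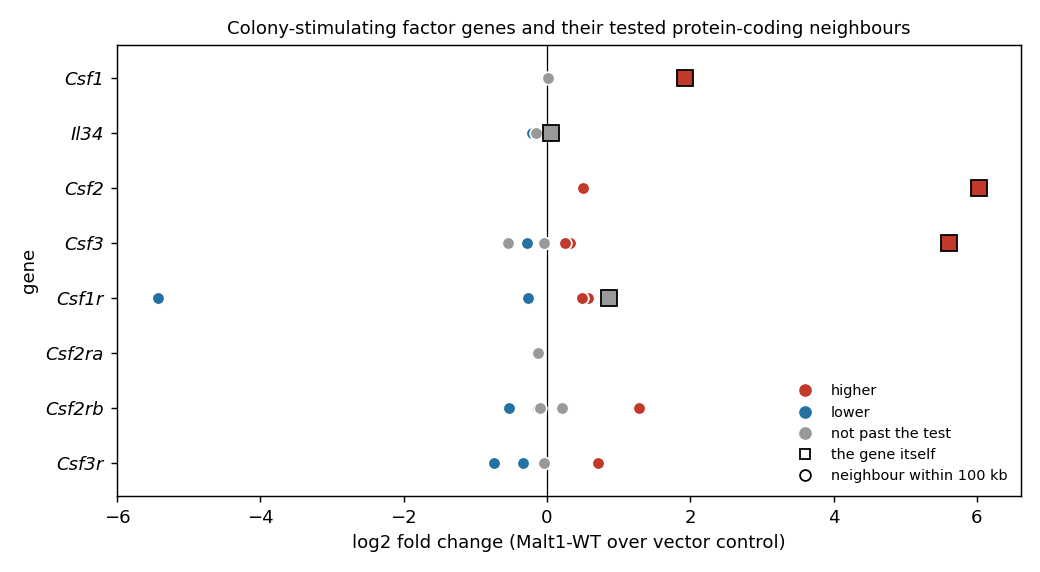
Log2 fold change (Malt1-WT over vector control) of each tested member (square) and of the tested protein-coding genes within 100 kb of it (circles); red is higher, blue lower and grey not past the test. Squares of Csf2 and Csf3 lie at 6.04 and 5.60, while the circles in their rows lie between -0.55 and 0.50.

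Other haematopoietic growth factor genes were read from a list of 11, of which 8 were tested, 6 higher and 2 lower. Their median log2 fold change was 1.68, and 31% of all tested genes were higher and 30.2% lower. Lif, an interleukin-6 family cytokine, rose to 160 ± 0.938 CPM in Malt1-WT, against 9.21 ± 0.563 CPM in the vector control (log2 fold change 4.12). Il6, itself a driver of myeloid and acute-phase responses, rose to 182 ± 4.35 CPM, against 17.6 ± 1.31 CPM in the vector control (3.37). Il11 (2.66), which supports platelet precursors, Il15 (2.31), Flt3l (1.04), the growth factor of dendritic cell precursors, and Thpo (0.97) rose as well. The 2 that fell were Kitl (-0.77), which encodes stem cell factor, and Il7 (-0.54), a lymphocyte growth factor. Thpo rests on 14, 23 and 15 counts in Malt1-WT and 9, 6 and 13 in the vector control (edgeR adjusted p = 0.0415). Il11 and Thpo passed the filter on low counts only through their levels in Malt1-WT, which favoured a higher call.

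Relatives of the family were nearly absent. Il3, Il5, Il3ra and Il5ra, the other ligands and alpha chains that use the common beta chain, had 1 count each in Malt1-WT and 0 in the vector control. Ptprz1, an alternative receptor of interleukin-34, had 7 counts in Malt1-WT (0, 5 and 2) and 3 in the vector control (0, 2 and 1). Sdc1, a proteoglycan reported to bind interleukin-34, was abundant at 1025 ± 6.19 CPM in Malt1-WT and 1011 ± 21.9 CPM in the vector control, and did not pass the test (log2 fold change 0.02, edgeR adjusted p = 0.534).

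Of 28 listed signal transducers that act below these receptors, 26 were tested, 13 higher, 6 lower and 7 not past the test. The median log2 fold change was 0.12. Over all tested genes, the shares were 31% higher and 30.2% lower. Jak2, the kinase bound to Csf2rb, rose by 1.91 (114 ± 1.34 CPM in Malt1-WT and 30.4 ± 0.392 CPM in the vector control). The tyrosine phosphatase gene Ptpn6, which dampens these receptors, fell by 1.08, and the adaptor gene Gab2 and the kinase gene Src rose by 0.88 each. Stat5a (-0.15) and Stat5b (0.05) did not pass the test, whereas Stat3, which G-CSF receptors activate, rose by 0.30. These transducers serve many other receptors.

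Among 12 listed target and feedback genes of STAT5 and STAT3, 10 were tested, 9 higher and 1 lower, with a median of 0.63. For comparison, 31% of all tested genes were higher and 30.2% lower. The cytokine gene Osm rose by 2.85 (9.05 ± 0.580 CPM in Malt1-WT and 1.25 ± 0.278 CPM in the vector control), the feedback inhibitor gene Socs1 by 1.76 and the kinase gene Pim1 by 1.14, while Id1 fell by 1.80. Cish, a feedback gene closely tied to STAT5, had 1 count in Malt1-WT and 0 in the vector control, and Socs2 had 2 and 3.

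**Figure D4:**
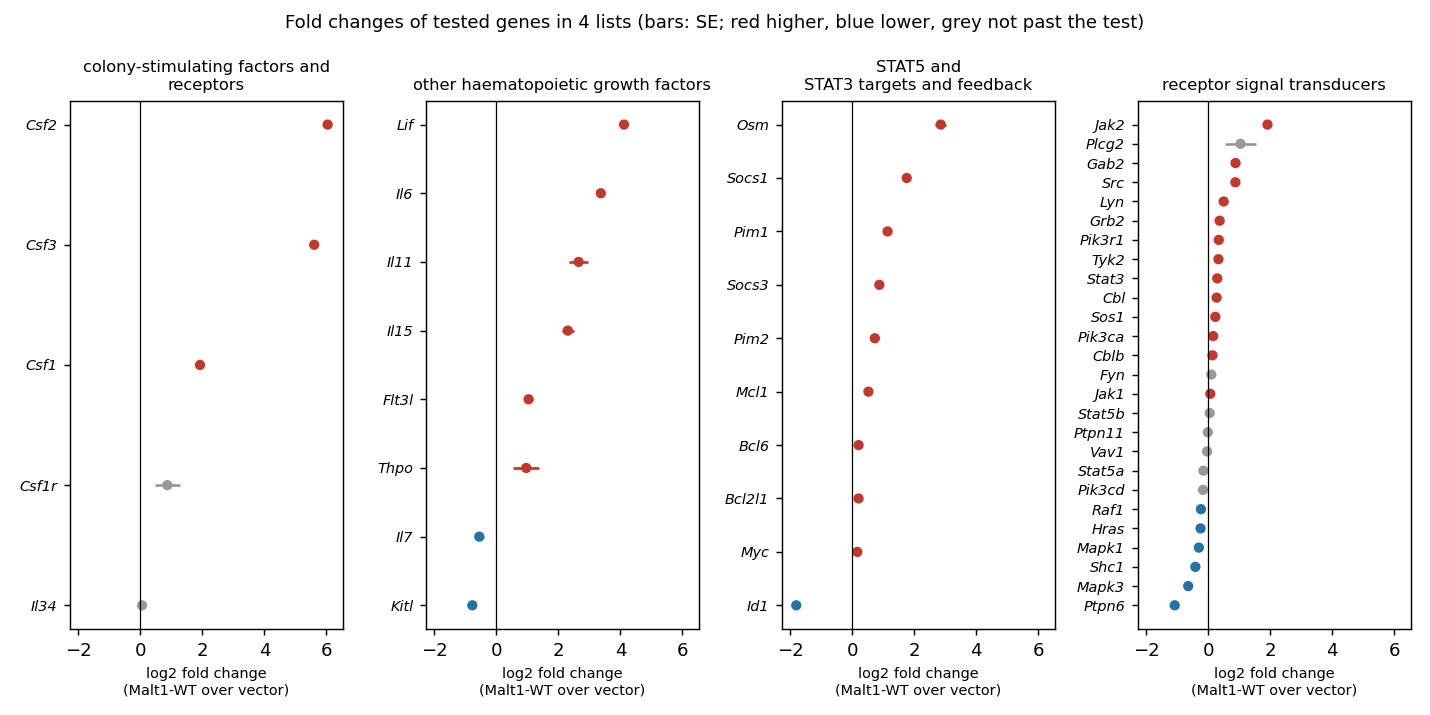
Log2 fold changes (Malt1-WT over vector control, bars for the SE) of all tested genes in 4 lists, with red for higher, blue for lower and grey for not past the test. Csf2 and Csf3 lie beyond every gene of the other 3 lists, of which Lif (4.12) is the highest.

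Transcription factors known to act on these genes were read from a list of 22. Of these, 21 were tested, 15 higher, 4 lower and 2 not past the test, with a median of 0.90. Over all tested genes 31% were higher and 30.2% lower. The AP-1 genes Fos (2.81; 18.4 ± 0.350 CPM in Malt1-WT and 2.62 ± 0.491 CPM in the vector control) and Fosb (1.71) had the largest increases. Nfatc2 (-1.83; 0.620 ± 0.0941 and 2.21 ± 0.453 CPM), Cebpd (-1.71), Sp3 (-0.55) and Sp1 (-0.11) fell. The 5 NF-kB subunit genes rose by 0.90 (Rela) to 1.57 (Nfkb2).

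Proteins that bind AU-rich and stem-loop elements of such messages were represented by 9 genes, with 6 called higher, 2 called lower and 1 not called. The median was 0.32, and the shares over all tested genes were 31% higher and 30.2% lower. Zfp36, which encodes tristetraprolin, a factor that destabilises Csf2 mRNA, rose by 3.67 (104 ± 3.11 CPM in Malt1-WT and 8.12 ± 0.576 CPM in the vector control). Zc3h12a rose by 1.13 and Zfp36l1 by 1.02. Zfp36l2 (-0.44) and Khsrp (-0.24) fell. The messages of Csf2 and Csf3, with the pentamer-rich stretches shown above, were thus higher in the same libraries as Zfp36. Whether mRNA stability has a part in the result was not tested.

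Some leukocyte markers moved with the ligands. Of 12 macrophage markers 5 were tested, and 4 of these were higher and 1 lower in Malt1-WT. The shares over all tested genes were 31% higher and 30.2% lower. Adgre1 had 21, 32 and 28 counts in Malt1-WT and 2, 1 and 0 in the vector control, and Cd68 was at 14.4 ± 1.21 CPM in Malt1-WT and 4.48 ± 0.548 CPM in the vector control. Lyz2 fell by 2.33, with 5, 19 and 17 counts in Malt1-WT and 72, 92 and 57 in the vector control. Adgre1 passed the filter on low counts only through its level in Malt1-WT, and Lyz2 only through its level in the vector control. The direction of these calls was therefore favoured by the filter. The summed level of the 12 markers was 27.3 to 29.1 CPM in Malt1-WT and 13.6 to 16.97 CPM in the vector control, and C1qa, C1qb and C1qc had 0 counts in every library. The part of such markers in the ligand result was not tested.

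Of 7 pan-leukocyte markers 2 were tested: Coro1a (1.10) was higher and Fcer1g (-0.28) lower. As above, 31% of all tested genes were higher and 30.2% lower. Their summed level was 13.7 to 15.1 CPM in Malt1-WT and 15.2 to 16.9 CPM in the vector control. Tyrobp had 0 counts in every library, and Ptprc had 0, 1 and 3 counts in Malt1-WT and 2, 1 and 0 in the vector control. For the neutrophil list of 7, the sum was 12.3 to 14.6 CPM in Malt1-WT and 11.7 to 13.1 CPM in the vector control, most of it S100a8 (12.6 ± 1.15 CPM in Malt1-WT and 12.3 ± 0.561 CPM in the vector control, not past the test). Camp, a granule protein gene of neutrophils, had 25, 10 and 15 counts in Malt1-WT and 1, 3 and 1 in the vector control, groups that did not overlap, and it did not pass the filter on low counts, so it was not tested. Ngp had 0 counts in every library. The lymphocyte list of 9 summed to 0.548 to 0.838 CPM in Malt1-WT and 0.638 to 0.894 CPM in the vector control, with 5 genes at 0, and the B cell gene Cd79a, also not tested, had 1, 5 and 6 counts in Malt1-WT and 9, 10 and 13 in the vector control. Of 3 endothelial markers 2 were tested: Pecam1 rose (1.02) and Cdh5 did not pass the test. The 3 summed to 10.2 to 10.7 CPM in Malt1-WT and 4.57 to 5.69 CPM in the vector control. All 4 fibroblast markers were tested: Col1a1 (-0.88) and Pdgfra (-0.48) fell, and Dcn and Lum did not pass the test. That list summed to 138 to 150 CPM in Malt1-WT and 194 to 206 CPM in the vector control.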

How the data were processed

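Per the labels' protocols, RNA was extracted from E0771 cells with RNAiso Plus and made into NEBNext Ultra II Directional libraries for paired-end sequencing. The submitters' processing notes name the build GRCm38.p6 and, as tools, STAR 2.7.3a, Trim Galore 0.6.0 and featureCounts 1.6.3. The sources used here do not give the annotation or strand setting. The authors deposited raw counts per gene symbol in 6 libraries, and their own log2 fold changes, mean log2 expression, t score and p-values, per the file headers.

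Counts were tested with edgeR 4.0.16 (R 4.3.3): filterByExpr (minimum count 10), TMM scaling, robust quasi-likelihood fit, glmQLFTest without a block and Benjamini-Hochberg adjustment. DESeq2 1.42.0 was an alternative. The SE is the log2 fold change divided by the square root of F. Lengths and positions are from GENCODE M21 (GRCm38), promoters from RefSeq (GRCm38.p6), where 4 members outside chromosome 18 matched. Precision is limited by 3 libraries a group. The genes named are the members, up to 4 per list with the largest called change, exceptions in direction, tested neighbours within 100 kb and the 3 nearest profiles (mean log2 CPM of at least 1, prior count 2). Others were named after their values were seen. Members and lists were chosen with earlier results of these data known.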

Additional observations from a re-analysis of the deposited data

How the results depend on the processing

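The count of 3 members called was the same under all 12 alternatives: RLE, upper quartile and library-size scaling, no filter on low counts, DESeq2, a replicate block, and leaving out each of the 6 libraries. The log2 fold change ranged from 5.93 to 6.20 for Csf2, 5.52 to 5.77 for Csf3 and 1.85 to 1.93 for Csf1. Il34 changed sign with library size only (-0.018), without Malt1-WT replicate 3 (-0.038) and without vector control replicate 2 (-0.020). Leaving out single libraries gave -0.038 to 0.13 for Il34, and all alternatives together gave an adjusted p of 0.440 to 0.914. Csf1r was at 0.65 to 1.06, with an adjusted p of 0.0610 to 0.230. Under the replicate block, Csf2 was at 6.03, Csf3 at 5.61, Csf1 at 1.93, Il34 at 0.06 and Csf1r at 0.87, and 8168 genes were called, against 8320 without it. Same-numbered libraries had deviation correlations of -0.0414, -0.0360 and 0.00723, so the numbers were not taken as pairs. The log2 difference of the Csf2 to Csf1 ratio was 4.04 to 4.28 and that of Csf3 to Csf2 -0.66 to -0.25 with single libraries left out. The cause of the sign changes of Il34 was not tested. Csf2ra, Csf2rb and Csf3r had too few counts for any value under the main filter, which is a limit of depth.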

Other observations

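The authors' deposited table gives log2 fold changes of 6.02 for Csf2 (adjusted p 0.00287), 5.60 for Csf3 (adjusted p 0.000126), 1.92 for Csf1 (adjusted p 0.000174) and 0.05 for Il34, in the authors' own comparison, for which the sources used here name no tool. The authors' deposited table gives an adjusted p of 1 for Il34 and all 4 receptor genes. Its t score for Csf1r is 0 at a log2 fold change of 0.87, so its p-values may not test against no change. They may therefore not be comparable with those of edgeR.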
